A study of Homo sapiens with 10 samples.

Results

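The comparison described here set a ventral arm of a human neural differentiation, d16V, against the dorsal arm of the same day, d16D, within each of 2 lines of H9 cells. H9 is an established human embryonic stem cell line. The members were chosen by name: the libraries V1PAKI_d16V and Ctrl_d16V against V1PAKI_d16D and Ctrl_d16D, which are 4 of the 10 libraries of the series. The other 6 libraries cover days 0, 4 and 10 of the same 2 lines and entered only to estimate the spread and to give the day 10 levels. V1PAKI is the line whose genotype is labelled SOX1-OT V1 PAKI, after the noncoding gene SOX1-OT, and Ctrl is labelled wild type. PAKI, D and V are not spelled out in the labels.

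All 4 groups shared a culture protocol. Per the labels' protocols, embryoid bodies received neural medium from day 4, were attached at day 7 and formed rosettes of neuroepithelial cells. For ventral telencephalon, neuroepithelial cells then received 200 ng/ml Sonic hedgehog protein and 1.5 µM SAG, a small molecule agonist of Smoothened, from day 10 to day 25. The d16V libraries are read here as that treated arm and the d16D libraries as the arm without it, at day 16. Each arm had 1 library per line, no label marks separate cultures, and before day 10 the arms of a line may have been 1 culture. V1PAKI is 1 line, so its history cannot be told apart from its genotype.

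Sonic hedgehog patterns the ventral neural tube. When the ligand binds the receptor Patched, the membrane protein Smoothened is released from inhibition and GLI transcription factors turn on targets that include the pathway's own receptors and antagonists. High signalling favours ventral progenitor factors of the NKX family, while GLI3, in its repressor form, and WNT and BMP signals from the roof plate and cortical hem favour dorsal fates.

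The authors deposited FPKM values: fragments per kilobase of transcript, scaled to the total of the library. Differences are given as d16V minus d16D on the log2(FPKM + 1) scale, which compresses the differences of genes with low levels. The test was limma over all 14311 genes that had at least 1 FPKM in at least 2 of the 4 day 16 libraries, with stage and line as terms. A gene was called at an adjusted p under 0.05 (Benjamini-Hochberg, over all genes tested). Each p-value sets the difference against how the gap between the lines varies from stage to stage, not against the spread between repeated cultures. Separately, and without a test, a gene was said to agree where its difference was at least 1 in size and of the same sign in both lines. In bulk RNA, fewer cells of a type and less RNA per cell cannot be told apart. FPKM summed to between 200509 and 213818 in the 4 libraries, and the sequencing depth is not stated. Both V1PAKI libraries stood apart in genes of endoderm, mesenchyme and other non-neural tissues, V1PAKI_d16V on the low side and V1PAKI_d16D on the high side. The fit was also run without each. Steps in the values of single-exon genes put the total by which they were scaled at 15650000 to 18250000 fragments in the day 16 libraries.

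Limma called 33 genes higher in d16V, or 0.231% of the genes tested, and 27 lower, or 0.189%. All 60, or 0.419%, also agreed between the lines at a difference of at least 1. A gap between the lines in that difference counts as spread in this fit, so the test itself favours genes that moved alike. The genes higher in d16V were led by 3 homeobox genes of the NKX2 family and by hedgehog targets, and those lower in d16V by the hormone precursor TRH, regulators of the dorsal telencephalon and WNT pathway genes. Agreement without the test held for 83 genes higher in d16V (0.58% of genes tested) and for 63 lower (0.44%). Those 83 were 22.7% of the genes at least 1 higher in V1PAKI and 36.2% of those at least 1 higher in Ctrl. The 63 were 7.76% of the genes at least 1 lower in V1PAKI and 39.1% of those at least 1 lower in Ctrl.

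The lines differed in how many genes moved. In V1PAKI 365 genes (2.55%) were at least 1 higher in d16V and 812 (5.67%) at least 1 lower. The same counts in Ctrl were 229 (1.6%) and 161 (1.13%). The SD of the differences over the genes tested was 0.711 in V1PAKI and 0.391 in Ctrl. Across genes, which are not independent replicates, the differences of the lines had a Pearson r of 0.0949.

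**Figure D1:**
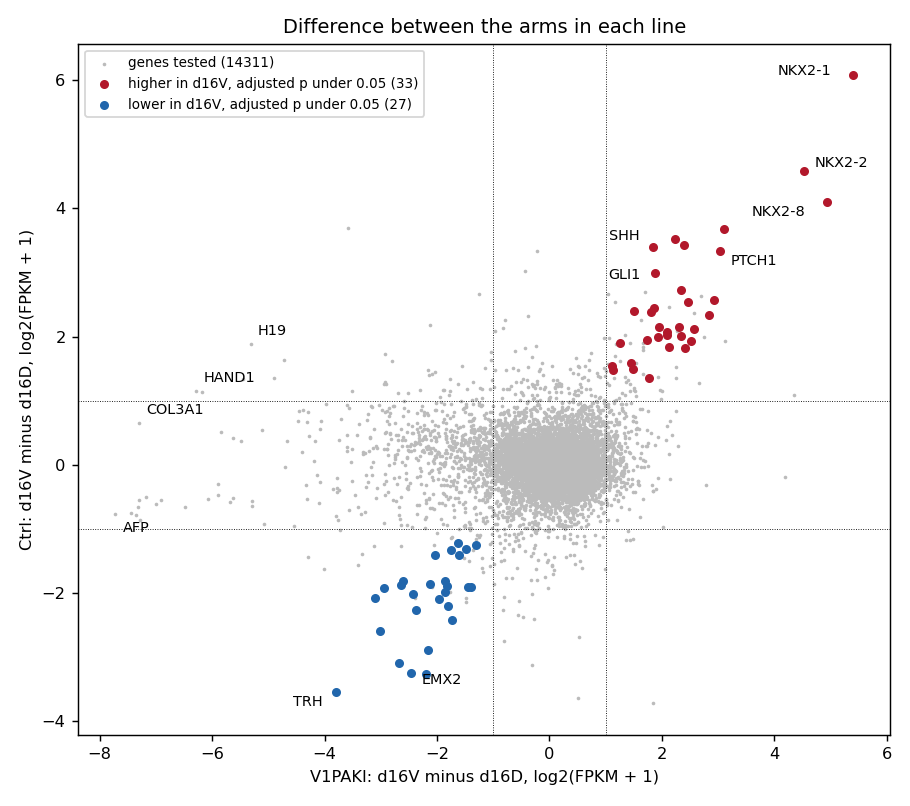
Each point is 1 of 14311 genes, placed by its difference d16V minus d16D on the log2(FPKM + 1) scale in V1PAKI (x axis) and in Ctrl (y axis); dotted lines mark a difference of 1. The 33 genes called higher (red) and the 27 called lower (blue) lie in the corners where both lines moved the same way, and a band of genes such as AFP, COL3A1 and HAND1 was far lower in d16V in V1PAKI without being so in Ctrl.

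Among the hedgehog pathway genes, the ligand SHH and the targets that report signalling were higher in d16V, and the coreceptor CDON was lower. PTCH1, the Patched receptor and a direct target of the pathway, had 73.2 FPKM in V1PAKI and 65.3 FPKM in Ctrl at d16V, against 8.04 FPKM in V1PAKI and 5.56 FPKM in Ctrl at d16D. The arms did not overlap, and the ratio was 9.11 in V1PAKI and 11.8 in Ctrl. The fitted log2 difference of PTCH1 was 3.19 (SE 0.22, limma adjusted p = 0.00165). At day 10 PTCH1 stood at 9.69 FPKM in V1PAKI and 6.08 FPKM in Ctrl, so the d16D level was close to that of day 10 in both lines.

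HHIP, a membrane protein that binds and sequesters hedgehog ligands, had 4.17 FPKM in V1PAKI and 5.01 FPKM in Ctrl at d16V, against 0.479 FPKM in V1PAKI and 0.146 FPKM in Ctrl at d16D. It rose by 2.097 on the log2 scale (SE 0.22, limma adjusted p = 0.0107). GLI1, the GLI factor that is itself a target and a standard readout of the pathway, had 13.2 FPKM in V1PAKI and 11.6 FPKM in Ctrl at d16V, against 2.86 FPKM in V1PAKI and 0.588 FPKM in Ctrl at d16D. In d16V the lines stood close together and in d16D they did not, so the ratio of the arms was 4.63 in V1PAKI and 19.7 in Ctrl. The fitted log2 difference of GLI1 was 2.44 (SE 0.36, limma adjusted p = 0.0408).

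SHH itself had 4.23 FPKM in V1PAKI and 12.2 FPKM in Ctrl at d16V, against 0.467 FPKM in V1PAKI and 0.249 FPKM in Ctrl at d16D. The treatment added the protein, whereas the reads measure the cells' own transcript. It rose by 2.62 on the log2 scale (SE 0.36, limma adjusted p = 0.0294), with a difference of 1.83 in V1PAKI and 3.40 in Ctrl. Of the 6 ligands and release factors on the list, 3 passed the filter, SHH among them. DISP1, which releases lipid-bearing ligand from cells, had a log2 difference of -0.02, and SCUBE2, a secreted helper of release, one of -0.67, neither past the test. The ligand IHH did not pass the filter and stood at 5.94 FPKM in V1PAKI_d16D, where genes of non-neural tissues were high, and at 0.163 to 0.86 FPKM in the other 3 libraries. DHH lay below 0.1 FPKM in all 4 libraries, and HHAT, which attaches the lipid, at 0.844 to 1.01 FPKM.

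Coreceptors that help cells bind the ligand ran the other way. CDON had 1.99 FPKM in V1PAKI and 2.46 FPKM in Ctrl at d16V, against 9.87 FPKM in V1PAKI and 11.2 FPKM in Ctrl at d16D. It fell by 1.84 on the log2 scale (SE 0.18, limma adjusted p = 0.00876), by nearly the same amount in both lines. GAS1, another coreceptor, had 10.4 FPKM in V1PAKI and 8.00 FPKM in Ctrl at d16V, against 38.2 FPKM in V1PAKI and 40.6 FPKM in Ctrl at d16D. Its groups did not overlap and it agreed between the lines, but its log2 difference of -1.99 (SE 0.32) missed the threshold (limma adjusted p = 0.0576). BOC, also a coreceptor, had a log2 difference of -0.88 (limma adjusted p = 0.461). GLI3, the main source of GLI repressor, had 6.08 FPKM in V1PAKI and 6.78 FPKM in Ctrl at d16V, against 18.9 FPKM in V1PAKI and 31.9 FPKM in Ctrl at d16D. It also agreed between the lines and missed the threshold narrowly (log2 difference -1.78, SE 0.28, limma adjusted p = 0.0527).

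The signal transducers did not pass the test. SMO, which encodes Smoothened, had 38.2 FPKM in V1PAKI and 35.8 FPKM in Ctrl at d16V, against 28.7 FPKM in V1PAKI and 39.7 FPKM in Ctrl at d16D. GLI2, the main activator, had a log2 difference of -0.17, SUFU, a negative regulator of GLI proteins, one of 0.35, and KIF7, a kinesin of the primary cilium, one of 0.01. The endocytic receptor LRP2, the ciliary receptor GPR161, SPOP, IFT88, EVC and EVC2 had differences between -0.13 and 0.24. Of the 9 receptors and coreceptors tested, 3 were called higher and 1 lower; of the 9 GLI factors and regulators tested, 1 was called higher. The list medians were close to 0 in both lines, at 0.24 in V1PAKI and -0.15 in Ctrl for the receptors and at 0.11 and -0.06 for the GLI factors and regulators, beside 0.05 in V1PAKI and 0.00 in Ctrl over all genes tested.

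**Figure D2:**
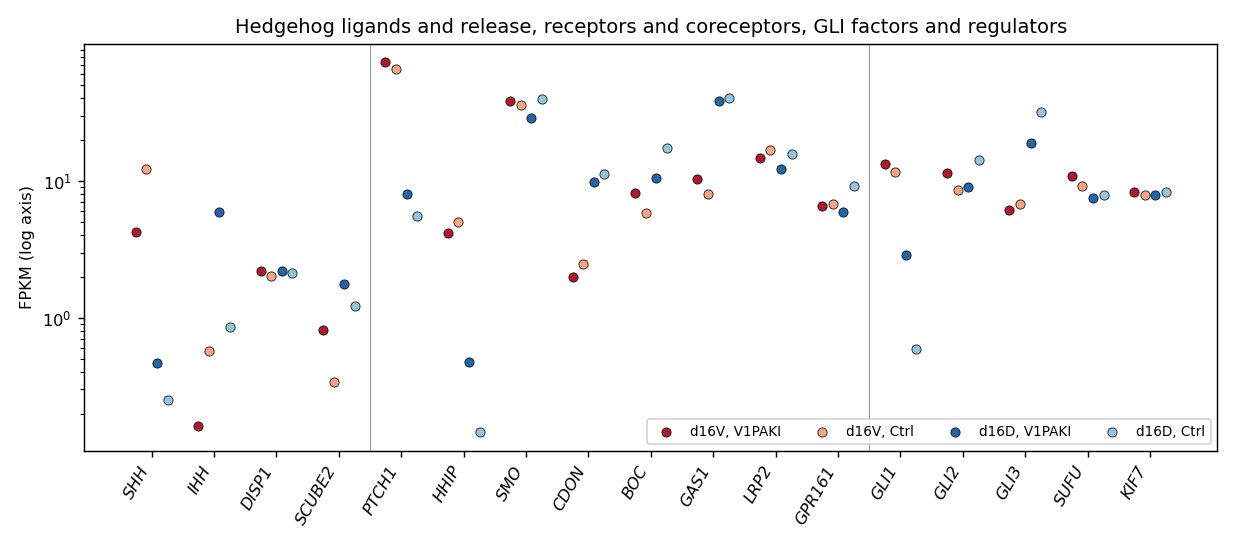
FPKM on a log axis of 17 hedgehog pathway genes in the 4 day 16 libraries, d16V in red shades and d16D in blue shades; thin lines separate ligands and release factors, receptors and coreceptors, and GLI factors with their regulators. SHH, PTCH1, HHIP and GLI1 sit higher in both d16V libraries, CDON, GAS1 and GLI3 lower, and SMO, SUFU and KIF7 nearly level.

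Promoters are shown for 3 of these genes because GLI proteins are known to bind a 9-base motif, TGGGTGGTC. The windows are RefSeq promoters of build GRCh38.p14, from 250 bases before to 50 after a transcript start, and both strands were searched for the motif (reverse complement GACCACCCA) and for its core GGGTGGTC (reverse complement GACCACCC), which lies within it. Of 35116 windows in the table, 83 held the 9-base motif (0.236%) and 342 the core (0.974%). Counted by gene, of 9961 tested genes with a window, 34 held the 9-base motif (0.341%) and 162 the core (1.63%). Among the genes called higher, 22 had a window, and the 9-base motif was found in 1 of them, PTCH1. It lies in 1 of the 5 annotated windows of PTCH1 and starts 172 bases before that window's transcript start. Among the 52 agreeing higher genes with a window, MBIP and LITAF held the core alone. Among the 19 genes called lower with a window, CLDN1 held the core. The first sequence below is that PTCH1 window (chr9:95509217-95509516, minus strand), the second the MBIP window (chr14:36320588-36320887, minus strand), a neighbour of NKX2-1, and the last 1 of the 2 windows of NKX2-1 (chr14:36520183-36520482, minus strand), the gene with the largest fitted difference of those called, which holds no match. Capitals mark the motif or its core. A match describes letters only.
PTCH1: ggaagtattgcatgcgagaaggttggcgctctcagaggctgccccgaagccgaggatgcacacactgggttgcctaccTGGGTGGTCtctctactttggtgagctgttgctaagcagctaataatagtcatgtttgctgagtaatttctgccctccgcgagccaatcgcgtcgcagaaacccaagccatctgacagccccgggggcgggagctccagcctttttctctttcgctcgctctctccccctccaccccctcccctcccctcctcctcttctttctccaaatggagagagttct
MBIP: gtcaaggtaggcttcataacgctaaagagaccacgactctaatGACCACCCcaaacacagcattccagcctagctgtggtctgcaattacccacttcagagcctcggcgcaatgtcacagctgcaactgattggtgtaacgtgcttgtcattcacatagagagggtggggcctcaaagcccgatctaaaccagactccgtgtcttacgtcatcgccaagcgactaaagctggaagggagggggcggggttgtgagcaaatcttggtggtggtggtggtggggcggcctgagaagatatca
NKX2-1: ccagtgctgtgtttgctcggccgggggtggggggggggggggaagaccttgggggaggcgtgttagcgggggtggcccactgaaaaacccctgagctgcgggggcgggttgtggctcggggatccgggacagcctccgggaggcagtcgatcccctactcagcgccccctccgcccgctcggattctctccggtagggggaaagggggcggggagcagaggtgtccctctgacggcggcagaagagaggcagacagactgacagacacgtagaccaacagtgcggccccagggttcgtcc

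Ventral progenitor factors were the list with the most members called. Of its 10 members tested, 6 were called higher, none lower, and 9 agreed between the lines, with a median difference of 2.29 in V1PAKI and 2.73 in Ctrl. NKX2-1, a homeobox factor of the ventral forebrain and hypothalamus, had 44.8 FPKM in V1PAKI and 67.5 FPKM in Ctrl at d16V, against 0.0826 FPKM in V1PAKI and 0.0145 FPKM in Ctrl at d16D. Its log2 difference was 5.74 (SE 0.23, limma adjusted p = 6.05e-05). NKX2-2, a homeobox factor of the progenitors next to the floor plate, had 22.6 FPKM in V1PAKI and 23.1 FPKM in Ctrl at d16V, against 0.0232 FPKM in V1PAKI, while it was listed at 0 in Ctrl at d16D. Its log2 difference was 4.56 (SE 0.18, limma adjusted p = 6.05e-05). These genes were nearly off in d16D and well expressed in d16V, in both lines.

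NKX2-8, of the same family, had 32.5 FPKM in V1PAKI and 16.2 FPKM in Ctrl at d16V, against 0.0917 FPKM in V1PAKI, and was listed at 0 in Ctrl at d16D (log2 difference 4.52, SE 0.27, limma adjusted p = 0.00089). NKX6-2 and NKX6-1, homeobox factors of a broader ventral domain, were called as well. NKX6-2 had 4.75 FPKM in V1PAKI and 16.3 FPKM in Ctrl at d16V, against 0.226 FPKM in V1PAKI and 0.502 FPKM in Ctrl at d16D. NKX6-1 had 3.84 FPKM in V1PAKI and 4.08 FPKM in Ctrl at d16V, against 0.455 FPKM in V1PAKI and 0.317 FPKM in Ctrl at d16D. DBX1, a homeobox factor of intermediate progenitor domains, had a log2 difference of 2.34 (SE 0.24, limma adjusted p = 0.00943).

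OLIG2 and OLIG1, helix-loop-helix factors of ventral progenitors and the oligodendrocyte lineage, agreed between the lines without passing the test. OLIG1 had 8.24 FPKM in V1PAKI and 15.4 FPKM in Ctrl at d16V, against 0.814 FPKM in V1PAKI and 1.44 FPKM in Ctrl at d16D (limma adjusted p = 0.0508). FOXA2, a winged-helix factor of the floor plate and of endoderm, had 10.98 FPKM in V1PAKI and 8.12 FPKM in Ctrl at d16V, against 2.70 FPKM in V1PAKI and 0.403 FPKM in Ctrl at d16D (limma adjusted p = 0.187). V1PAKI_d16D, the higher of the d16D libraries, was also high in other endoderm genes; their part in that value was not tested.

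In the floor plate list, which holds the ventral midline cells that secrete SHH, 2 of 10 members tested were called higher, SHH and SPON1, and 4 agreed upward. SPON1, a secreted adhesion protein of the floor plate, had 62.4 FPKM in V1PAKI and 72.9 FPKM in Ctrl at d16V, against 13.8 FPKM in V1PAKI and 16.6 FPKM in Ctrl at d16D (log2 difference 2.08, SE 0.24, limma adjusted p = 0.0128). The axon guidance cue NTN1 agreed between the lines and missed the threshold (log2 difference 1.88, limma adjusted p = 0.0529). The list median was -0.38 in V1PAKI and 0.30 in Ctrl, so the list as a whole did not move one way.

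The labels' protocols aim at ventral telencephalon. Of 16 genes on the list of that region 12 were tested, and 1, NKX2-1, was called higher in d16V. Of the 12, 9 in V1PAKI and 5 in Ctrl had a difference above 0. GSX1, also on the list, rose in both lines without being called (0.89 in V1PAKI, 0.85 in Ctrl, limma adjusted p = 0.15). LHX6 and LHX8, factors of the medial ganglionic eminence, stayed under 1 FPKM in all 4 libraries and were not tested. LHX6 had 0.617 FPKM in V1PAKI and 0.447 FPKM in Ctrl at d16V, against 0.0968 FPKM in V1PAKI and 0.0308 FPKM in Ctrl at d16D. DLX1, a factor of inhibitory neuron precursors, moved in opposite directions, at 4.10 FPKM in V1PAKI and 6.62 FPKM in Ctrl at d16V, against 0.882 FPKM in V1PAKI and 16.2 FPKM in Ctrl at d16D. GSX2, a patterning factor of the lateral eminence, stood at 9.16 FPKM in Ctrl_d16D and below 1 FPKM in the other 3 libraries. The list median was 0.52 in V1PAKI and -0.30 in Ctrl.

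Some genes of the hypothalamus were higher in d16V. Of 15 hypothalamus genes tested, 3 were called higher (NKX2-1, FOXD1 and FOXB1), 6 agreed upward and 2 downward, with a median of 1.37 in V1PAKI and 1.15 in Ctrl. FOXD1, a winged-helix factor of the diencephalon, had 13.2 FPKM in V1PAKI and 16.02 FPKM in Ctrl at d16V, against 1.69 FPKM in V1PAKI and 0.583 FPKM in Ctrl at d16D (log2 difference 2.91, SE 0.29, limma adjusted p = 0.00876). FOXB1, which marks mammillary progenitors in mouse, had 16.5 FPKM in V1PAKI and 9.12 FPKM in Ctrl at d16V, against 1.46 FPKM in V1PAKI and 1.00 FPKM in Ctrl at d16D (log2 difference 2.59, SE 0.29, limma adjusted p = 0.0124). SIX3 and SIX6, homeobox factors of the anterior forebrain and eye field, agreed upward without passing the test. SIX6 had 27.7 FPKM in V1PAKI and 47.3 FPKM in Ctrl at d16V, against 8.25 FPKM in V1PAKI and 9.05 FPKM in Ctrl at d16D (limma adjusted p = 0.0741). TBX2 and POMC were the list's members that agreed downward.

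In the eye field and optic stalk list, 9 genes were tested, PAX2 was called higher and 1 other gene lower. In this list 4 genes agreed upward and 1 downward. PAX2, which marks the optic stalk, had 15.1 FPKM in V1PAKI and 12.4 FPKM in Ctrl at d16V, against 2.20 FPKM in V1PAKI and 2.33 FPKM in Ctrl at d16D. It rose by 2.17 on the log2 scale (SE 0.30, limma adjusted p = 0.0294).

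On the dorsal side, 5 of 13 dorsal telencephalon genes tested were called lower and none higher, and 6 agreed downward, with a median of -1.62 in V1PAKI and -1.44 in Ctrl. EMX2, a homeobox factor of the cortical primordium, had 1.40 FPKM in V1PAKI and 1.64 FPKM in Ctrl at d16V, against 12.3 FPKM in V1PAKI and 24.2 FPKM in Ctrl at d16D. It fell by 2.86 on the log2 scale (SE 0.26, limma adjusted p = 0.00736). Its antisense neighbour EMX2OS fell by 2.73 (SE 0.33, limma adjusted p = 0.0172), and with the treatment of strand not stated their reads cannot be told apart. All 3 doublesex-related factors on the list were called: DMRTA2 fell by 2.59, DMRT3 by 1.99 and DMRTA1 by 1.42 on the log2 scale (limma adjusted p = 0.0113, 0.0081 and 0.035). DMRTA2 had 0.768 FPKM in V1PAKI and 1.50 FPKM in Ctrl at d16V, against 14.2 FPKM in V1PAKI and 9.62 FPKM in Ctrl at d16D.

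NEUROG1, a proneural factor, was the fifth (log2 difference -1.92, SE 0.23, limma adjusted p = 0.0178). PAX6, a factor of dorsal progenitors, had 2.66 FPKM in V1PAKI and 1.58 FPKM in Ctrl at d16V, against 6.24 FPKM in V1PAKI and 8.40 FPKM in Ctrl at d16D. Its log2 difference of -1.43 did not pass (limma adjusted p = 0.0876), and with -0.98 in V1PAKI it fell just short of agreement. EMX1 and TBR1, cortical factors that did not pass the filter, reached 2.74 and 2.81 FPKM in Ctrl_d16D and stayed below 0.5 FPKM in the other 3 libraries. LHX2 and FEZF2, which mark the whole early forebrain, were not called. ZIC1 and ZIC4, zinc finger factors of the dorsal neural tube, agreed downward without passing the test (limma adjusted p = 0.0637 and 0.122). Of the 15 dorsal progenitor factors tested, a separate list, none was called and 3 agreed downward: GLI3, ZIC1 and ZIC4. That list had a median of -1.52 in V1PAKI and -0.72 in Ctrl. Its members ZIC2, ZIC5 and IRX5 differed by under 0.5 in size in both lines.

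**Figure D3:**
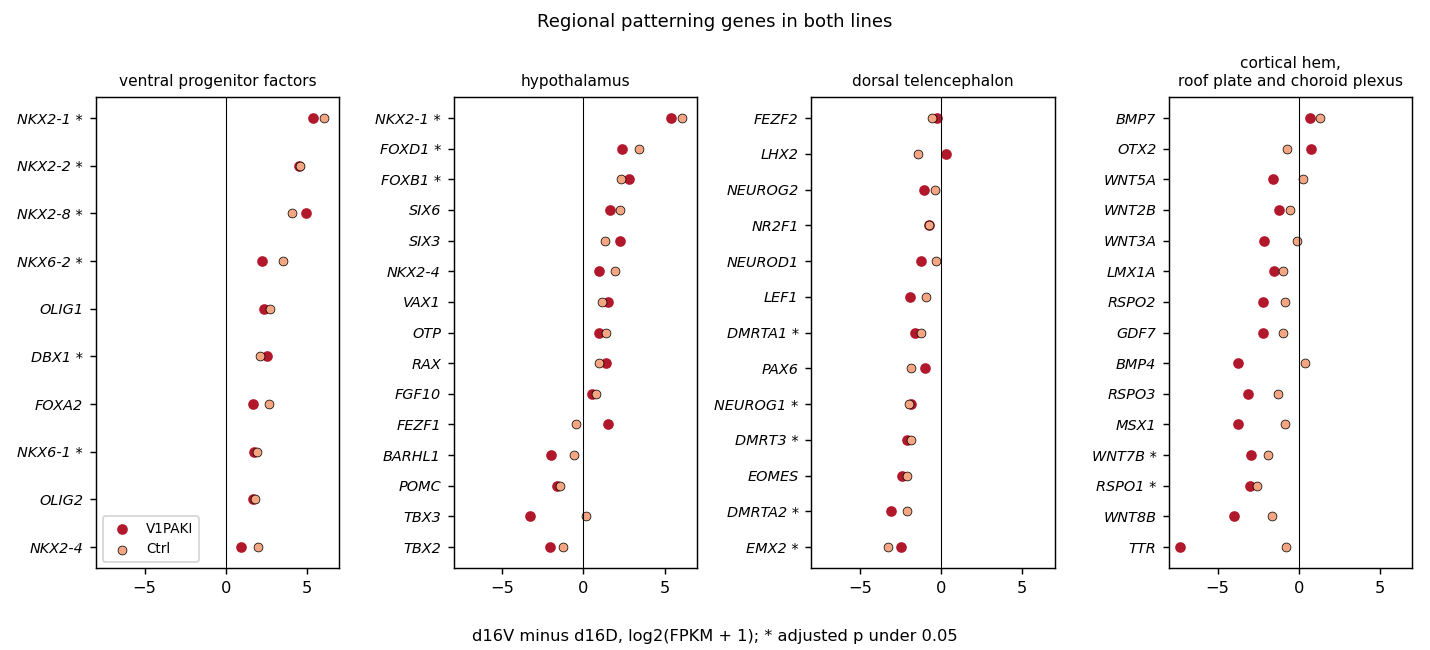
Difference d16V minus d16D on the log2(FPKM + 1) scale in V1PAKI (dark red) and Ctrl (light) for the tested members of 4 patterning lists; stars mark genes with an adjusted p under 0.05. Ventral progenitor factors all lie right of 0 in both lines, from NKX2-4 to NKX2-1, dorsal telencephalon genes mostly left of it, and several cortical hem and roof plate genes such as TTR and BMP4 lie far left in V1PAKI but within 1 of 0 in Ctrl.

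Among cortical hem, roof plate and choroid plexus genes, 2 of 15 tested were called lower, both of the WNT pathway. RSPO1, a secreted enhancer of WNT signalling, had 1.29 FPKM in V1PAKI and 1.67 FPKM in Ctrl at d16V, against 17.6 FPKM in V1PAKI and 15.2 FPKM in Ctrl at d16D (log2 difference -2.81, SE 0.30, limma adjusted p = 0.0107). WNT7B, a WNT ligand, had 1.68 FPKM in V1PAKI and 3.23 FPKM in Ctrl at d16V, against 19.6 FPKM in V1PAKI and 15.0 FPKM in Ctrl at d16D (log2 difference -2.43, SE 0.31, limma adjusted p = 0.0225). WNT8B, a ligand of the cortical hem, agreed downward without passing (-4.00 in V1PAKI, -1.63 in Ctrl, limma adjusted p = 0.0741). Of 12 WNT response genes tested, 1 was called lower: LGR5, a receptor for R-spondins, with a log2 difference of -1.28 (SE 0.20, limma adjusted p = 0.0491). AXIN2, the usual readout of WNT signalling, had 4.19 FPKM in V1PAKI and 4.63 FPKM in Ctrl at d16V, against 13.7 FPKM in V1PAKI and 9.82 FPKM in Ctrl at d16D (limma adjusted p = 0.265). TCF7L2, a WNT effector that also marks the thalamus, was called higher (log2 difference 1.48, SE 0.22, limma adjusted p = 0.0368).

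TRH, the precursor of thyrotropin-releasing hormone, had the largest fitted difference among the 27 genes called lower. It had 0.525 FPKM in V1PAKI and 0.733 FPKM in Ctrl at d16V, against 20.2 FPKM in V1PAKI and 19.3 FPKM in Ctrl at d16D. It fell by 3.67 on the log2 scale (SE 0.26, limma adjusted p = 0.00165). DRD4, a dopamine receptor also known from retina, and CLDN1, a tight junction protein, fell by 2.22 and 2.21 (limma adjusted p = 0.0352 and 0.0117). ARL2-SNX15, a read-through of neighbouring genes whose level depends on how reads were split between overlapping models, was called lower too and is uncertain. On the other side, GRIK3, a kainate receptor subunit, and POU3F4, a POU factor of the ventral forebrain, rose by 2.53 and 2.50 on the log2 scale (limma adjusted p = 0.0136 and 0.00204). POU3F1, a POU factor of early neural progenitors, had 46.4 FPKM in V1PAKI and 34.4 FPKM in Ctrl at d16V, against 10.1 FPKM in V1PAKI and 7.70 FPKM in Ctrl at d16D (limma adjusted p = 0.0294). FGFBP3, a secreted carrier of fibroblast growth factors, agreed upward at high levels without passing: 251 FPKM in V1PAKI and 322 FPKM in Ctrl at d16V, against 27.9 FPKM in V1PAKI and 83.4 FPKM in Ctrl at d16D (limma adjusted p = 0.0639).

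Few genes of general neural identity, neurons and proliferation were called. Of 16 pan-neural progenitor genes tested, 1 was called higher, POU3F1. SOX2, a factor of neural stem cells, had 246 FPKM in V1PAKI and 206 FPKM in Ctrl at d16V, against 83.8 FPKM in V1PAKI and 130 FPKM in Ctrl at d16D (limma adjusted p = 0.283). None of 17 neuron genes was called, and the median was 0.30 in V1PAKI and -0.51 in Ctrl. None of 22 proliferation genes was called, with medians of 0.35 in V1PAKI and 0.04 in Ctrl. Of 14 genes of the FGF response and 17 of the Notch and proneural list, none was called higher and 1, NEUROG1, lower. Among midbrain, hindbrain and spinal cord genes PAX2 was the only one of 6 tested that was called.

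The genes of the study's title were not called between the arms. SOX1-OT, the gene named in the V1PAKI genotype, had 1.22 FPKM in V1PAKI and 3.51 FPKM in Ctrl at d16V, against 0.212 FPKM in V1PAKI and 1.87 FPKM in Ctrl at d16D (log2 difference 0.76, limma adjusted p = 0.995). SOX1, its neighbour and a factor of neural progenitors, had 7.38 FPKM in V1PAKI and 18.7 FPKM in Ctrl at d16V, against 10.9 FPKM in V1PAKI and 32.6 FPKM in Ctrl at d16D (log2 difference -0.64). HDAC10, a deacetylase, had a log2 difference of 0.14. SOX1 and SOX1-OT were lower in V1PAKI than in Ctrl in both arms.

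The called genes were also set against day 10 of their own line, a description added after the values had been seen. Genes higher in d16V had mostly moved in the treated arm: of the 33, 29 in V1PAKI and 32 in Ctrl stood at least 1 above day 10 at d16V, against 3 in V1PAKI and 1 in Ctrl at d16D. Genes lower in d16V had mostly moved in the other arm: of the 27, 23 in each line stood at least 1 above day 10 at d16D, and none in either line at d16V. EMX2 illustrates it, with 0.317 FPKM in V1PAKI and 0.897 FPKM in Ctrl at day 10. Only 3 of the 27 in V1PAKI and 2 in Ctrl stood at least 1 below day 10 at d16V. On the log2(FPKM + 1) scale a gene under 1 FPKM at day 10, EMX2 included, could not fall by 1. For such genes this count does not show whether they fell. The medians against day 10 were 2.14 at d16V and 0.07 at d16D in V1PAKI for the genes called higher, and 0.02 and 1.91 for those called lower; in Ctrl they were 2.31 and -0.01, and -0.10 and 1.78. Over all genes tested the 4 medians lay between 0.01 and 0.12. Of all 14311 genes tested, 988 in V1PAKI and 793 in Ctrl stood at least 1 above day 10 at d16V. At d16D these counts were 1124 in V1PAKI and 1061 in Ctrl. At least 1 below day 10 at d16V stood 595 genes in V1PAKI and 526 in Ctrl.

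Some called genes differed in size between the lines. The difference was larger in Ctrl by at least 1 for SHH, NKX6-2, GLI1 and FOXD1 among the genes called higher and for EMX2OS among those called lower. In V1PAKI it was larger by at least 1 for DMRTA2 and WNT7B. With 1 library per line and arm, these gaps between lines were not tested.

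Several agreeing genes lay side by side in the genome. Coordinates are of build GRCh38, from the GENCODE release 29 annotation. Of the 78 agreeing higher genes with a position, 25 (32.1%) had another such gene within 200 kb, in 9 groups. Of the 63 agreeing lower genes 4 (6.35%) did, in 2 groups. This difference was not tested. The same share over all genes tested was not counted, so neither percentage can be read as high or low. Some groups hold overlapping or antisense models of a single locus, such as HHIP with HHIP-AS1. The largest group lies on chromosome 14, where MBIP, SFTA3, NKX2-1, NKX2-1-AS1, RPL29P3 and NKX2-8 follow each other between 36298558 and 36582607. SFTA3 had 7.56 FPKM in V1PAKI and 11.8 FPKM in Ctrl at d16V and was listed at 0 in both lines at d16D (limma adjusted p = 0.00129). MBIP, a broadly expressed gene at the edge of this group, had 25.9 FPKM in V1PAKI and 29.7 FPKM in Ctrl at d16V, against 7.48 FPKM in V1PAKI and 10.5 FPKM in Ctrl at d16D, and did not pass the test (limma adjusted p = 0.264).

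The other upward groups paired a known regulator with noncoding or antisense neighbours or with a relative. They were NKX2-2 with AL133325.3 on chromosome 20, SIX3 with SIX3-AS1, LINC01833 and AC012354.3 on chromosome 2, PTCH1 with AL161729.2 and AL161729.4 on chromosome 9, HHIP with HHIP-AS1 on chromosome 4, and POU3F1 with MIR3659HG on chromosome 1. FOXB1 with AC009654.1 on chromosome 15, OLIG2 with OLIG1 on chromosome 21 and GPR50 with KC877982.1 on chromosome X completed the set. AL133325.3, a long noncoding RNA next to NKX2-2, had 12.3 FPKM in V1PAKI and 10.3 FPKM in Ctrl at d16V, against 0.746 FPKM in V1PAKI and 0.907 FPKM in Ctrl at d16D (log2 difference 2.75, SE 0.27, limma adjusted p = 0.00876). The downward groups were EMX2 with EMX2OS on chromosome 10 and ZIC1 with ZIC4 on chromosome 3. For overlapping and antisense pairs, reads of one may have been counted for the other.

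The arms differed in 1 line only for many more genes. In V1PAKI 208 genes (1.45%) were at least 1 higher and 472 (3.3%) at least 1 lower in d16V while the Ctrl difference was under 0.5 in size. In Ctrl 58 genes (0.405%) were at least 1 higher and 49 (0.342%) at least 1 lower while the V1PAKI difference was under 0.5. Opposite differences of at least 1 in both lines were found for 42 genes lower in V1PAKI and higher in Ctrl (0.293%) and for 5 the other way (0.0349%). Genes of non-neural tissues had large differences in V1PAKI. AFP, a protein of yolk sac and fetal liver, had 4.88 FPKM in V1PAKI and 132 FPKM in Ctrl at d16V, against 1242 FPKM in V1PAKI and 226 FPKM in Ctrl at d16D.

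Sums over whole marker lists set both V1PAKI libraries apart from Ctrl, low at d16V and high at d16D. The endoderm sum rests on secreted liver proteins such as AFP and APOA1. Summed FPKM of 16 endoderm, yolk sac and liver genes was 14.2 in V1PAKI and 279 in Ctrl at d16V, against 2666 in V1PAKI and 468 in Ctrl at d16D. The sum of 17 mesenchyme and fibroblast genes was 32.8 in V1PAKI and 355 in Ctrl at d16V, against 1271 in V1PAKI and 221 in Ctrl at d16D. For 16 mesoderm and muscle genes it was 7.45 in V1PAKI and 40.1 in Ctrl at d16V, against 212 in V1PAKI and 24.1 in Ctrl at d16D. V1PAKI_d16D was the highest and V1PAKI_d16V the lowest library in each of these 3 lists, with both Ctrl arms between them. The 15 neural crest genes did not share this order, with sums of 60.2 in V1PAKI and 81.5 in Ctrl at d16V, against 95.7 in V1PAKI and 96.5 in Ctrl at d16D. The endoderm factor SOX17 and the factor CDX2 were listed at 0 in V1PAKI_d16V, and a 0 in these files can be a failed estimate.

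List medians show it gene by gene. The median difference was -4.75 in V1PAKI and -0.56 in Ctrl for the 10 endoderm genes tested, -3.26 in V1PAKI and 0.36 in Ctrl for 15 mesenchyme genes, and -2.52 in V1PAKI and 0.45 in Ctrl for 9 mesoderm genes. It was -2.74 in V1PAKI and 0.58 in Ctrl for 10 epithelium genes, -2.46 in V1PAKI and 0.22 in Ctrl for 9 trophoblast and amnion genes, -1.63 in V1PAKI and -0.13 in Ctrl for 12 neural crest genes, and -2.72 in V1PAKI and -0.22 in Ctrl for 4 endothelium and blood genes. None of the members of these 7 lists was called. Of the signalling lists, the BMP response had a median of -1.77 in V1PAKI and 0.24 in Ctrl over 13 genes, none called. The part of these cells in the differences of the neural genes was not tested. Without V1PAKI_d16D, the d16D arm rests on Ctrl_d16D alone. All 33 genes called higher and all 27 called lower kept their direction in that fit, but many were no longer called. The Ctrl differences of these genes already had that direction. PTCH1, NKX2-1, NKX2-2, NKX2-8 and SFTA3 were among those still called.

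**Figure D4:**
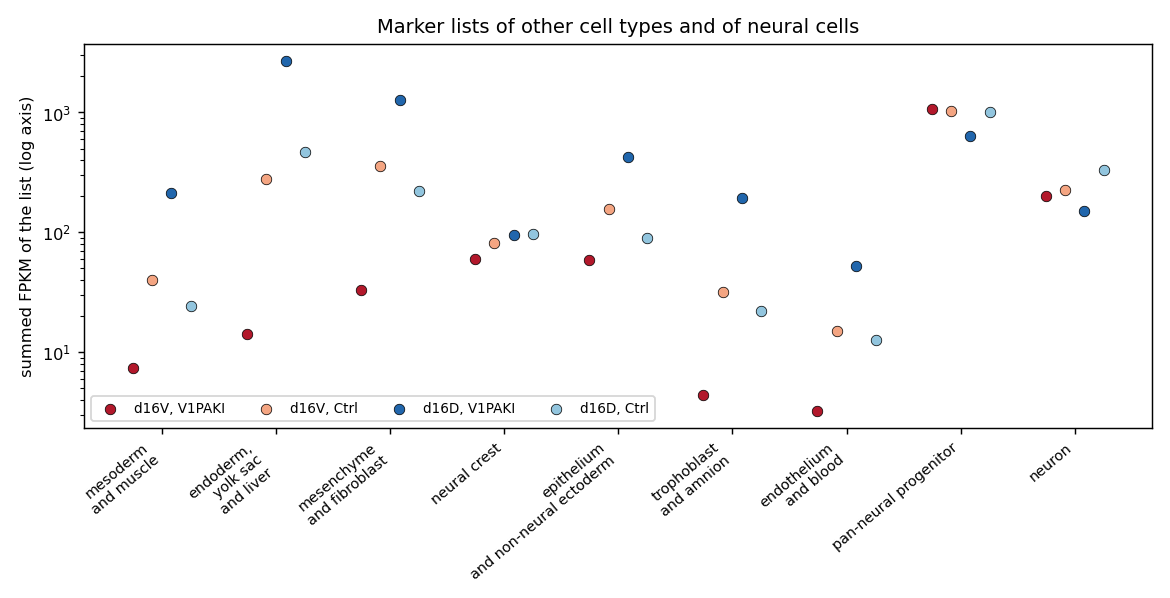
Summed FPKM (log axis) of 9 marker lists in the 4 day 16 libraries, d16V in red shades and d16D in blue shades. For endoderm, mesenchyme, mesoderm, epithelium, trophoblast and endothelium V1PAKI_d16D is the highest and V1PAKI_d16V the lowest library, while the pan-neural and neuron lists differ far less between libraries.

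**Figure D5:**
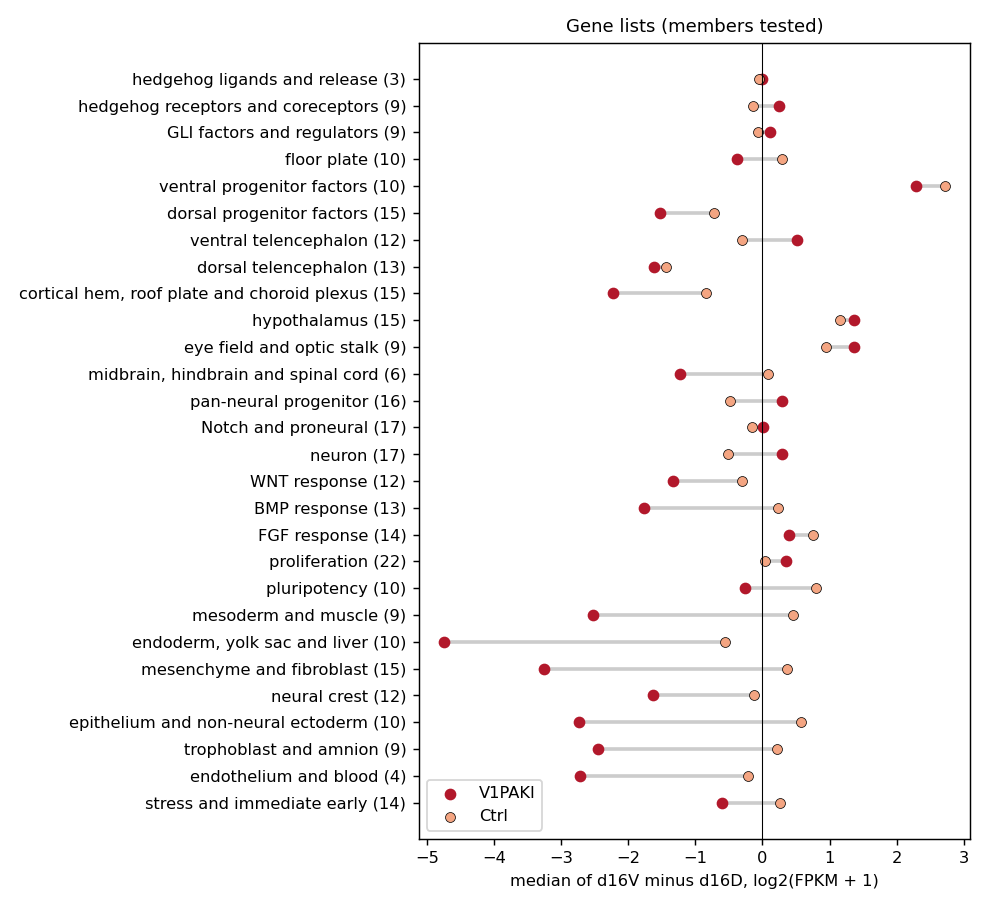
Median difference d16V minus d16D on the log2(FPKM + 1) scale of the tested members of 28 gene lists, in V1PAKI (dark red) and Ctrl (light), with the number tested in brackets. The lines lie close together for ventral progenitor factors (2.29 in V1PAKI and 2.73 in Ctrl), dorsal telencephalon and hypothalamus, and far apart for endoderm (-4.75 in V1PAKI and -0.56 in Ctrl) and mesenchyme.

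The calls rest on few libraries. Fitted on the 4 day 16 libraries alone, with 1 residual degree of freedom, limma called no gene. In that fit 374 genes higher and 282 lower, of 14311 tested, had an unadjusted limma p under 0.05. In the fit of all 10 libraries 390 higher (2.73%) and 413 lower (2.89%) did. Where no gene differs, a share of about 0.05 falls under that threshold anyway, so these counts are not read as signal. Without Ctrl_d16V it called 5 higher and 4 lower, and without V1PAKI_d16V 10 higher and 1 lower. Without Ctrl_d16D it called 43 higher and 99 lower. NKX2-1, NKX2-2, NKX2-8, PTCH1, SFTA3 and TRH were called in each of the 4 fits that left out 1 day 16 library, and no other gene of the 60 was. A fit without a library compares an arm's lone library with the other arm and assumes that it varies like the rest.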

How the data were processed

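RNA was sequenced from 10 libraries, 1 per line and stage. The authors deposited FPKM values for 42335 genes. Cutadapt 1.18, HISAT2 2.1.0, Cufflinks and build GRCh38 are named in their notes (per the submitters' processing notes), while annotation and strand handling were not given in the sources used here. Counts were not used here: 2.15% to 4.32% of low single-exon values sat on whole-fragment steps (tolerance 0.2%), so no count test was run and depth sets no interval here.

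Values were taken as log2(FPKM + 1), with a pseudocount of 1 FPKM. Genes at 1 FPKM or more in 2 or more of the 4 day 16 libraries entered a limma 3.58.1 fit under R 4.3.3 (lmFit, eBayes with an intensity trend) on all 10 libraries. Stage and line were additive terms, with 4 residual degrees of freedom, or 7.89 after moderation. Tests were two-sided, with Benjamini-Hochberg adjustment over all 14311 genes. The line term pairs the arms of a line by cell line; whether they shared a culture is not stated.

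Symbols were matched to the GENCODE release 29 annotation, 39994 directly and 383 through an older name. The 28 gene lists hold 374 genes. The comparison, the lists and the rule for named genes were chosen with earlier results of these data known. Named were all hedgehog members, the 12 called genes that rose and the 12 that fell most, up to 4 genes per other list, the 6 genes with the largest opposite differences and the title genes; LHX6, LHX8, DLX1, GSX2, LHX2, FEZF2, EMX1, TBR1, TBX2, POMC, OLIG1, OLIG2, TCF7L2, NKX6-1, DBX1, DMRTA1, COL3A1, SOX17, CDX2 and genes of the neighbourhoods were added after their values were seen. Results of some genes are not reported here. Alternatives changed the pseudocount, filter, scaling, GC and length trend, line term, prior variance and libraries in the fit.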

Additional observations from a re-analysis of the deposited data

Results flagged for a closer look

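Several results moved in opposite directions in the lines. Each value here is the difference d16V minus d16D in V1PAKI less that in Ctrl, on the log2(FPKM + 1) scale. With 1 library per line and arm, none of these differences between lines was tested.

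Of the gene lists, 7 had medians of opposite sign at least 1 apart: mesenchyme and fibroblast by -3.62, epithelium and non-neural ectoderm by -3.32, mesoderm and muscle by -2.97, trophoblast and amnion by -2.67, the BMP response by -2.01, midbrain, hindbrain and spinal cord by -1.32, and pluripotency by -1.07. In each the V1PAKI median was below 0 and the Ctrl median above it.

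Among single genes, HAND1, a factor of heart and extraembryonic mesoderm, differed by -7.44: it had 0.734 FPKM in V1PAKI and 19.9 FPKM in Ctrl at d16V, against 134 FPKM in V1PAKI and 8.41 FPKM in Ctrl at d16D. H19, an imprinted noncoding RNA, differed by -7.20. POSTN, a matrix protein of mesenchyme, differed by -6.36, the cardiac actin ACTC1 by -4.67, IGFBP7, a secreted binding protein, by -4.66, FOXF1, a factor of lateral mesoderm, by -3.64, and CLDN6, an embryonic tight junction protein, by -2.35. In all of these the V1PAKI_d16D library was the highest of the 4.

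TMEM189-UBE2V1, a read-through gene, differed by -7.27 and was listed at 0 in V1PAKI_d16V and Ctrl_d16D, with 10.97 FPKM in V1PAKI_d16D and 11.9 FPKM in Ctrl_d16V. AL109827.1 differed by -4.31. AC117378.1 differed by 5.57, the other way, and was listed at 0 in Ctrl_d16V. A 0 in these files can be a failed estimate.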

How the results depend on the processing

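All 60 genes called kept their direction in each of the 14 alternatives; whether they were called did not hold up as well. The counts of genes called higher and lower, 33 and 27 as reported, were 7 and 1 with a pseudocount of 0.1, 13 and 6 with a filter at 5 FPKM, 14 and 9 as TPM, 19 and 15 without the d0 libraries, and 0 and 0 with only the 4 day 16 libraries. With no filter 27 were called higher and 17 lower, among them 10 of the 33 and 5 of the 27 reported. Leaving out 1 day 16 library gave 5 to 43 called higher and 1 to 99 called lower; the 43 and 99 without Ctrl_d16D held 22 of the 33 and 19 of the 27. Median-of-ratios scaling, removal of a GC and length trend, no line block (44 and 38) and no intensity trend stayed within 1.5 times of the reported counts. Agreement between the lines, 83 higher and 63 lower as reported, moved to 148 and 145 with a pseudocount of 0.1, 55 and 28 with the filter at 5 FPKM, 139 and 129 as TPM, 286 and 271 at a threshold of 0.5, and 21 and 10 at a threshold of 2. TPM scaling moved the median of all genes to 0.05, from 0.02. NKX2-1, NKX2-2, NKX2-8 and PTCH1 were called in 13 of 14 alternatives, all but the fit of the 4 day 16 libraries, where their adjusted p lay between 0.12 and 0.18. No result reversed. TPM values are larger than FPKM values and the pseudocount of 1 was kept, so that alternative also made the pseudocount relatively smaller. These changes were not separated. The cause of the moves was otherwise not tested, beyond fewer genes or libraries entering a fit. Depth is not stated, so genes near 1 FPKM have the least certain values.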

Other observations

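Genes of 2 groups that the lists above did not hold were chosen after their values had been seen. Retinoic acid is a signal that eye and forebrain tissue makes with retinaldehyde dehydrogenases. Of 16 genes of its synthesis, breakdown, transport and receptors, 12 were tested, 3 were called lower in d16V and none higher. ALDH1A3, a retinaldehyde dehydrogenase, had 0.331 FPKM in V1PAKI and 1.35 FPKM in Ctrl at d16V, against 5.94 FPKM in V1PAKI and 10.3 FPKM in Ctrl at d16D (limma adjusted p = 0.0275). RDH10, which makes retinaldehyde, had 0.803 FPKM in V1PAKI and 1.12 FPKM in Ctrl at d16V, against 4.05 FPKM in V1PAKI and 4.25 FPKM in Ctrl at d16D (limma adjusted p = 0.0294). CYP1B1, a cytochrome that can also oxidise retinoids, had 0.292 FPKM in V1PAKI and 1.025 FPKM in Ctrl at d16V, against 7.09 FPKM in V1PAKI and 6.48 FPKM in Ctrl at d16D (limma adjusted p = 0.0107). ALDH1A1 agreed downward without passing the test (limma adjusted p = 0.127). The receptors RARA and RARG and the binding proteins CRABP1 and CRABP2 were not called.

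Of 14 neuropeptide genes 6 were tested, and TRH was the 1 called. HCRT, the precursor of orexin, agreed upward without passing: it had 3.38 FPKM in V1PAKI and 11.9 FPKM in Ctrl at d16V, against 0.390 FPKM in V1PAKI and 2.46 FPKM in Ctrl at d16D (limma adjusted p = 0.206). POMC agreed downward, with 0.157 FPKM in V1PAKI and 0.951 FPKM in Ctrl at d16V, against 2.52 FPKM in V1PAKI and 4.23 FPKM in Ctrl at d16D (limma adjusted p = 0.247).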
